A study of Mus musculus with 6 samples.

Results

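Tnfrsf1b, the gene that encodes the tumor necrosis factor receptor TNFR2, lies on mouse chromosome 4, and the genes described here are its neighbours on that chromosome. They were all named rows of the deposited expression table whose locus starts between 140 and 150 Mb on chromosome 4, leaving out TNF receptor and ligand symbols, solute carriers and small RNA genes. This rule took 150 rows with 146 distinct symbols, of 24617 rows in the table and 23108 with a gene name. The rule used position and symbol only, and no expression value. The first row inside the lower edge was Igsf21, with Klhdc7a just outside it, and the last inside the upper edge was H6pd, with Mir34a just outside. Of the 150 rows, 24 were listed at 0 in all libraries, 43 were above 0 but below the minimum for testing, a mean of 0.5 FPKM (fragments scaled to transcript length and to mapped fragments), and 83 were tested.

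The region holds genes with unrelated functions that share only their place on the chromosome. Toward higher coordinates from Tnfrsf1b comes a cluster of KRAB zinc finger genes, which encode DNA-binding proteins that are known to recruit the corepressor Trim28 to retroelements, and then a gene-dense stretch with the retrovirus restriction gene Fv1, the F-box genes and Mtor. Toward lower coordinates lie the Aadacl4 family of arylacetamide deacetylase-like genes, the PRAME family, which is transcribed mainly in germ cells, and the peptidylarginine deiminases, several of which are known from skin and hair. Fv1 is known in mice for alleles that differ between inbred strains in the murine leukemia viruses they restrict. KRAB zinc finger genes are known to lie in tandem clusters of recently duplicated copies, which makes their sequences similar.

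Distal colon mRNA was sequenced in 3 libraries from TNFR2-/- mice (KO) and 3 from wildtype C57Bl/6 mice (WT), all male and 8 weeks old, with no treatment named in the labels. The labels give the strain as C57Bl/6 for every sample. The sources used here do not give how the TNFR2 allele was made, the stem cell strain, the number of backcrosses or whether the groups were littermates. Tnfrsf1b itself, at chr4:145212368-145246870 on mm10, measured 1.17, 1.12 and 0.924 FPKM in the KO libraries and 7.49, 8.20 and 8.17 FPKM in the WT libraries, so that every library had the level its label calls for. Every count of calls below comes from limma on log2(FPKM + 1) over 14564 rows, with a call at a Benjamini-Hochberg adjusted p under 0.05. Log2 differences are KO minus WT with their standard error, and the scale understates the change of genes with low levels.

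The libraries were not alike in tissue content. Over 9 colonocyte and goblet cell markers found in the table, summed levels lay between 6164 and 9233 FPKM in KO libraries and between 6042 and 7708 FPKM in WT libraries. Over 10 skin markers the sums were 71.1, 622 and 1047 FPKM in KO libraries 1 to 3 and 1216, 490.1 and 1345 FPKM in WT libraries 1 to 3. Over 10 skeletal muscle markers they were 149, 1996 and 1503 FPKM in KO and 8623, 2643 and 3128 FPKM in WT. Over 6 leukocyte markers they were 490.4, 449 and 307 FPKM in KO and 669, 624 and 622 FPKM in WT. Of these sums the leukocyte and skeletal muscle ones did not overlap between the genotypes. Taken singly, the leukocyte markers Cd74, Lyz2 and C1qa did not overlap, while Ptprc, Cd79a and Cd3e did. Of the skeletal muscle markers Ttn overlapped. All 10 skin, all 10 skeletal muscle, all 6 hair, all 6 leukocyte and all 5 smooth muscle markers had a lower mean in KO, 8 of the 9 colonocyte and goblet markers had a higher one, and no marker was at 0 in any library. The part of tissue content in the differences below was not tested. In such whole tissue, fewer cells of a type and less RNA per cell cannot be told apart. Summed FPKM over all rows ranged from 655274 to 709593 per library, and the deposited values hold no read counts.

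Among the neighbours of Tnfrsf1b, 4 genes fell in the KO colon, namely Miip, Fv1, Fbxo44 and Gm13139, and 2 rose, among them 2610109H07Rik. That is 6 of 83 tested rows, or 7.23%, where 42 of 14564 rows were called over the whole table, or 0.288% (0.103% lower and 0.185% higher). The row of 2610109H07Rik was at 0 in all WT libraries and passed the minimum mean of 0.5 FPKM through its KO values alone. It is counted in the shares given here and below. All 6 lay at higher coordinates than Tnfrsf1b, where 45 neighbours were tested, 13.3% of which were called. At lower coordinates 0 of 38 were called by limma, 7 (18.4%) had an unadjusted p under 0.05, where 16.2% of all tested rows did, and 2 rows passed in the authors' deposited table. On chromosome 4 outside the window, 0 of 582 tested rows below 130 Mb, 1 of 160 between 130 and 140 Mb and 0 of 88 above 150 Mb were called, with 79 (13.6%), 23 (14.4%) and 19 (21.6%) at an unadjusted p under 0.05. On the other chromosomes 34 of 13648 were called, or 0.249%.

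Distance was counted as the gap between loci. Toward higher coordinates 1 of 3 tested neighbours was called within 1 Mb (33.3%), 0 of 2 between 1 and 2 Mb and 4 of 16 between 2 and 3 Mb (25.0%). Those 4 include 2610109H07Rik, which passed the minimum through its KO values alone. The step from 1 to 2 Mb held 1 row with an unadjusted p under 0.05. A looser measure, whether the 3 KO and 3 WT values overlapped at all, gave the same side. The groups did not overlap for 31 of 83 tested neighbours (37.3%), where this held for 21.8% of all tested rows. Every KO value was above every WT value in 9 of the 83 (10.8%), near the 9.3% of all tested rows, and below in 22 of the 83 (26.5%), where 12.5% of all tested rows had that order. On the higher side the groups did not overlap for 24 of 45 (53.3%). On the lower side the count was 7 of 38 (18.4%). The size of the differences followed the same split, with a median absolute log2 difference of 0.20 on the higher side, 0.09 on the lower side and 0.12 over all tested rows.

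**Figure D1:**
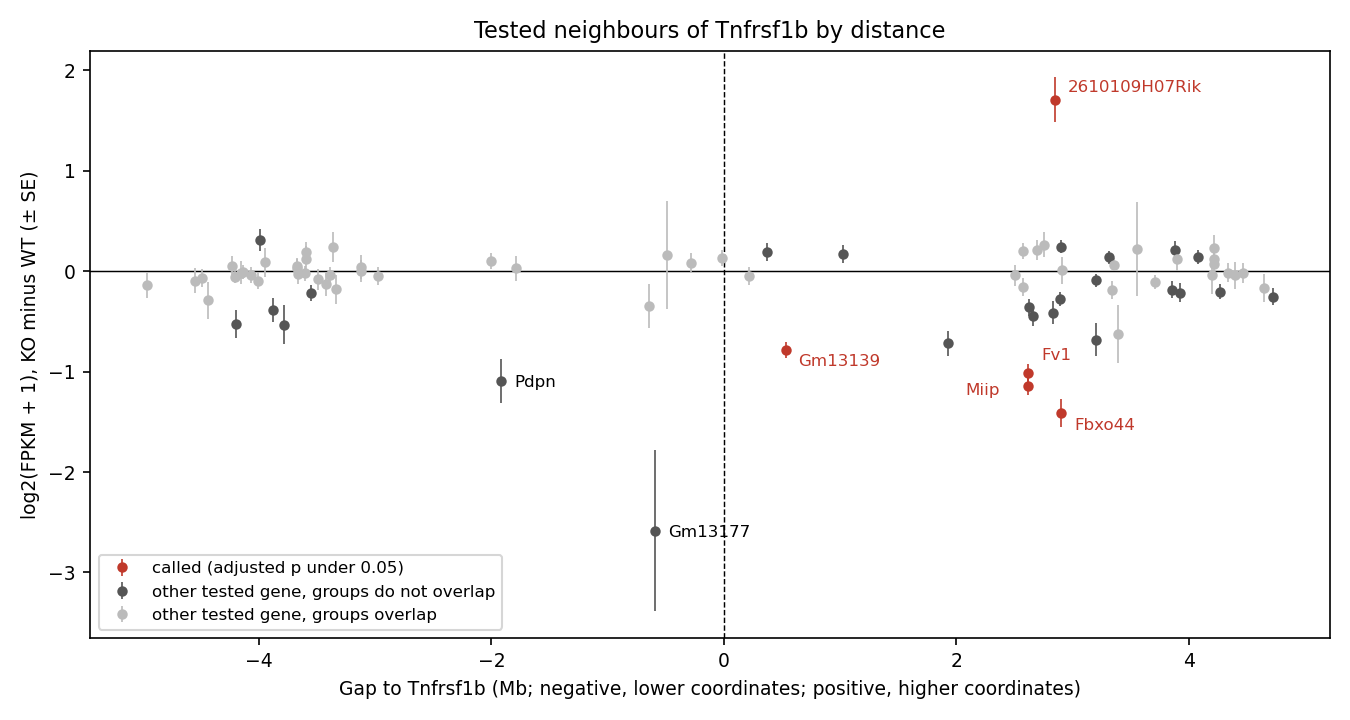
Log2 difference in log2(FPKM + 1), KO minus WT, with its standard error, for 81 of the 83 tested neighbours against their gap to Tnfrsf1b in Mb, negative toward lower and positive toward higher coordinates. The 5 called rows drawn, in red, all lie on the higher side, with 4 of them between 2 and 3 Mb, and the 2 largest negative differences on the lower side, Gm13177 and Pdpn, were not called.

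Miip, whose protein is known to restrain cell migration, and Fv1, which blocks incoming murine leukemia virus capsids, are next to each other and point away from each other. Miip (chr4:147860747-147868719, minus strand) lies 2.61 Mb from Tnfrsf1b, and the deposited row of Fv1 (chr4:147868772-147872424, plus strand) begins 52 bases after the Miip row ends. Miip measured 3.91, 3.65 and 3.57 FPKM in KO libraries and 9.31, 10.4 and 8.64 FPKM in WT libraries. No KO library came near any WT library, and the KO mean was 39.3% of the WT mean (log2 difference -1.15 ± 0.08, adjusted p = 0.0022). Fv1 measured 1.07, 0.755 and 0.917 FPKM in KO libraries and 2.76, 3.02 and 2.79 FPKM in WT libraries. Its KO values also lay in a range of their own, at 32.0% of the WT mean (log2 difference -1.01 ± 0.09, adjusted p = 0.0085).

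Neither gene shares such stretches of transcript with another gene. Of all 50-base stretches of the GENCODE transcripts, 50 bases being the stated read length, 0% of those of Miip and 0% of those of Fv1 occur in transcripts of another gene. RefSeq gives Fv1 as 1380 bases, a coding length, while the deposited row is longer at both ends, so the transcript that the authors measured reached beyond the coding part. The leukocyte and skeletal muscle marker sums were likewise lower in every KO library than in every WT library. The part of tissue content in the differences of Miip and Fv1 was not tested. The sources used here do not say whether strand was kept.

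Next along the chromosome come 3 genes of general cell biology with KO values below WT values that did not pass the test. Mfn2, which fuses mitochondrial outer membranes and lies tail to tail with Fv1, measured 26.9, 26.8 and 28.9 FPKM in KO libraries and 40.0, 33.8 and 33.4 FPKM in WT libraries (log2 difference -0.36 ± 0.09, adjusted p = 0.20). Plod1, a lysyl hydroxylase of collagen, measured 10.6, 10.3 and 8.50 FPKM in KO libraries and 14.6, 12.6 and 13.8 FPKM in WT libraries (log2 difference -0.45 ± 0.10, adjusted p = 0.18). For each of them the groups did not overlap, but the gap was small beside the whole-table threshold. Agtrap, which binds the type 1 angiotensin receptor, likewise lay lower, at 11.8, 9.69 and 8.57 FPKM in KO against 12.7, 14.0 and 14.2 FPKM in WT (adjusted p = 0.22).

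Between or shortly before these genes stood others whose groups overlapped. Clcn6, an endosomal chloride and proton exchanger between Plod1 and Agtrap, measured 2.17, 3.04 and 2.46 FPKM in KO and 2.26, 1.66 and 1.96 FPKM in WT (log2 difference 0.26 ± 0.12, adjusted p = 0.35). Nppa, the atrial natriuretic peptide gene, was at 0.142 to 0.563 FPKM in KO and 0.182 to 0.337 FPKM in WT, below the minimum for testing. Rps19-ps3, a ribosomal protein pseudogene shortly before Miip that shares 37.1% of its 50-base stretches with other genes, measured 21.5, 18.7 and 21.5 FPKM in KO and 17.6, 18.7 and 17.0 FPKM in WT. Clcn6, Nppa and Rps19-ps3 each had a higher mean in KO, but with overlapping groups. Of the 16 tested neighbours 2 to 3 Mb toward higher coordinates, 8 (50.0%) had every KO value below every WT value. The opposite order held for 2 (12.5%), among them 2610109H07Rik, which was at 0 in all WT libraries. Over all tested rows these shares were 12.5% and 9.3%.

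The F-box genes Fbxo6, Fbxo44 and Fbxo2 follow each other within the next stretch, and they did not move together. F-box proteins are the substrate-binding subunits of SCF ubiquitin ligases, and Fbxo2 and Fbxo6 are known to bind N-linked sugar chains on misfolded glycoproteins. Fbxo44 (chr4:148152738-148160064, minus strand) measured 1.39, 1.24 and 1.17 FPKM in KO libraries and 6.22, 5.02 and 4.06 FPKM in WT libraries. All KO values were far below the lowest WT value, and the KO mean was 24.9% of the WT mean (log2 difference -1.41 ± 0.14, adjusted p = 0.011), the largest drop among the called neighbours. Fbxo6, whose row ends 602 bases before that of Fbxo44 and which is read in the same direction, measured 25.0, 24.7 and 25.6 FPKM in KO and 20.2, 22.4 and 20.7 FPKM in WT (log2 difference 0.24 ± 0.06, adjusted p = 0.22). Fbxo2, on the far side and read in the opposite direction, measured 1.20, 1.75 and 1.97 FPKM in KO and 1.85, 1.55 and 1.43 FPKM in WT, with overlapping groups.

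The sequence shown next lies in the 603 bases between the deposited rows of Fbxo44 and Fbxo2, which point away from each other, and is printed because a gene that fell and a gene whose groups overlapped lie on its sides. RefSeq also extends Fbxo2 to an earlier start, 14 bases after the end of its Fbxo44, so the stretch lies inside that longer span. It is the part of the RefSeq upstream sequence of Fbxo2 (GRCm38.p6, chr4:148160483-148160620, plus strand) that holds no GENCODE exon, 138 bases with 77.5% G and C. Capitals mark the GC box letters GGGCGG, searched on both strands, which 27.9% of 32851 RefSeq promoter stretches of that length hold. The letters CCAAT and TATAAA, also searched on both strands, were not in this window.
Fbxo44-Fbxo2 stretch: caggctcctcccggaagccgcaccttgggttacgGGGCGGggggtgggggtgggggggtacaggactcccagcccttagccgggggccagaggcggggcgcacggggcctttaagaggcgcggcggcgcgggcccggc

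**Figure D2:**
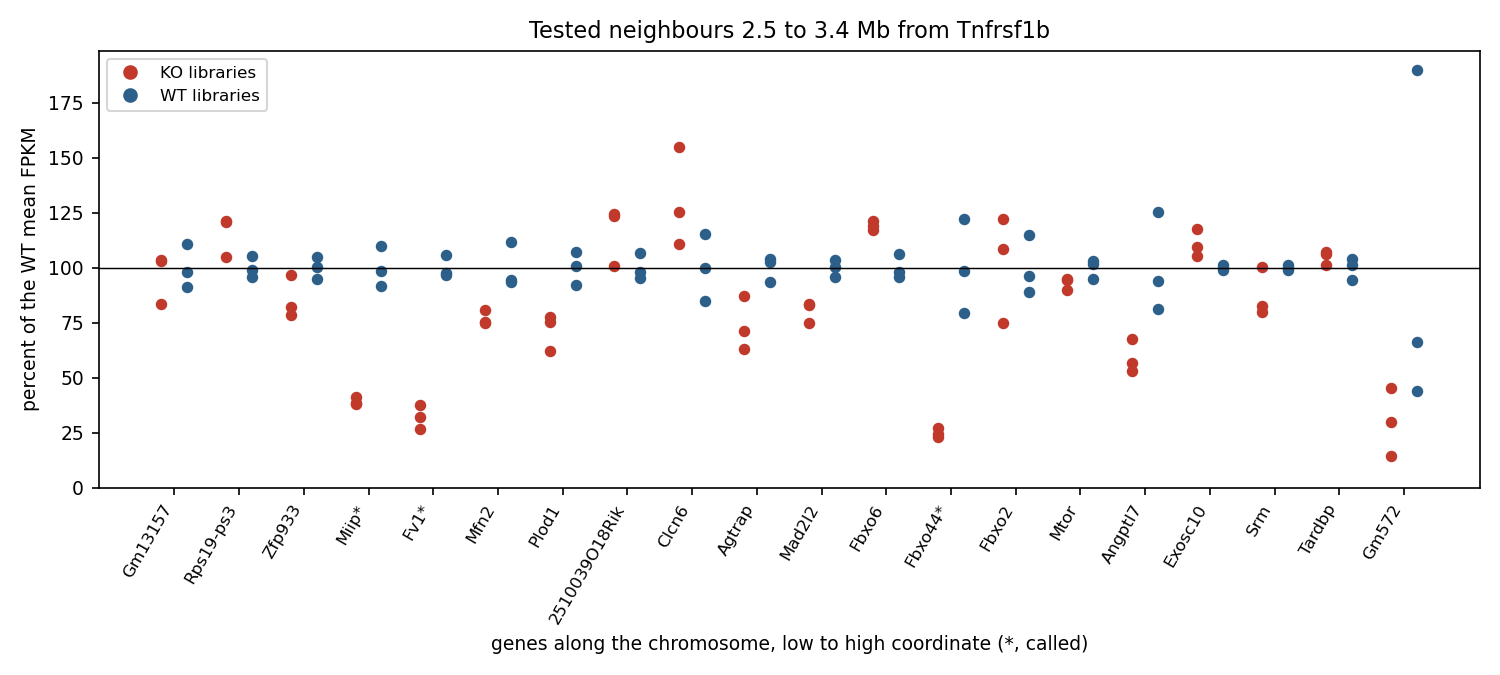
FPKM in each library as a percentage of the WT mean of the gene, for tested neighbours 2.5 to 3.4 Mb from Tnfrsf1b in chromosomal order, KO libraries left (red) and WT libraries right (blue) of each position, asterisks marking called genes. 2610109H07Rik is not drawn because its WT mean is 0, and 2 other genes were left out. The means of Miip, Fv1 and Fbxo44 in KO libraries were at 39.3%, 32.0% and 24.9% of WT, among neighbours that lay closer to the WT level.

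Mtor, the kinase at the centre of nutrient signalling, lies further along the chromosome. It measured 8.99, 9.45 and 9.46 FPKM in KO and 10.2, 9.50 and 10.3 FPKM in WT (log2 difference -0.09 ± 0.06, adjusted p = 0.49). The highest KO library and the lowest WT library nearly met. Angptl7, a secreted angiopoietin-like protein whose gene lies inside Mtor on the other strand, measured 7.65, 9.77 and 8.14 FPKM in KO and 18.1, 11.7 and 13.5 FPKM in WT (log2 difference -0.68 ± 0.16, adjusted p = 0.19). Its highest value was in WT library 1, which also had the highest muscle marker sum, and the part of that tissue in the difference was not tested.

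2610109H07Rik, named Draxin in RefSeq, encodes a secreted repulsive cue for growing axons that binds netrin receptors. It fills a pair of rows with the same locus (chr4:148098437-148130698, minus strand). In one row it measured 3.78, 1.72 and 1.67 FPKM in KO libraries and is listed at 0 in all 3 WT libraries (log2 difference 1.70 ± 0.22, adjusted p = 0.046). Depending on the pseudocount, the filter and the libraries, the fitted difference lay between 1.43 and 4.53, and no ratio can be given against 0. In the other row it measured 0.153, 0.129 and 0.1001 FPKM in KO and 0.126, 0.152 and 0.0795 FPKM in WT, all low and overlapping. In RefSeq the locus overlaps the start of Mad2l2, a subunit of DNA polymerase zeta and of the shieldin complex, on the opposite strand, while the deposited Mad2l2 row begins 9648 bases beyond it. Mad2l2 measured 7.38, 6.66 and 7.42 FPKM in KO and 8.52, 9.21 and 8.92 FPKM in WT (log2 difference -0.28 ± 0.07, adjusted p = 0.21). Without knowledge of strand, reads of overlapping genes cannot be told apart.

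**Figure D3:**
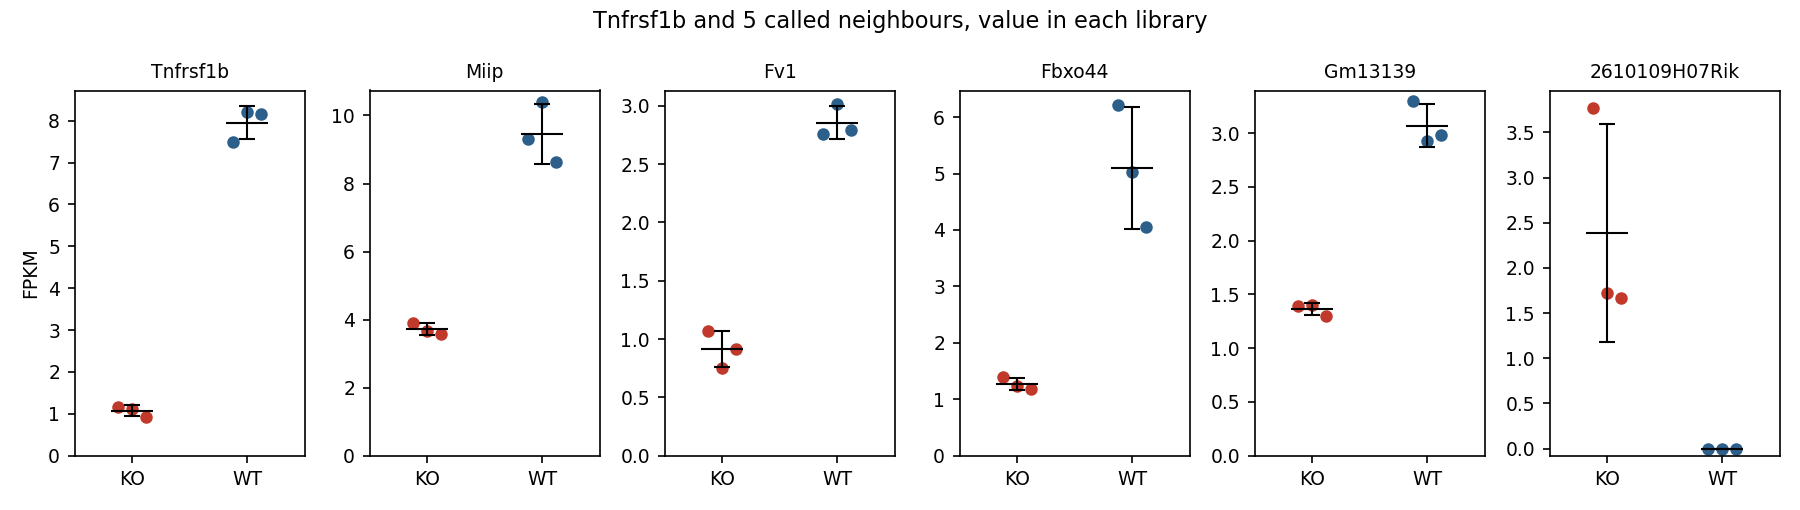
FPKM in each library for Tnfrsf1b and 5 of the called neighbours, KO (red) left of WT (blue), with the mean and SD of 3 libraries in black and an axis per gene that starts at 0 or just under it. KO and WT libraries did not overlap for any of the 6 genes, with 2610109H07Rik higher in KO and the others lower.

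Beyond Mtor the differences were smaller and more mixed. Exosc10, a nuclear exosome ribonuclease, measured 13.6, 14.1 and 15.1 FPKM in KO and 13.1, 12.9 and 12.7 FPKM in WT. Srm, which makes spermidine, had 13.0, 12.5 and 15.8 FPKM in KO and 15.6, 15.9 and 15.7 FPKM in WT, and Tardbp, which encodes the RNA-binding protein TDP-43, overlapped between groups at 18.2, 19.1 and 19.3 FPKM in KO and 17.0, 18.8 and 18.3 FPKM in WT. Neither passed the test (adjusted p = 0.36 and 0.64). Masp2, a protease of the lectin pathway of complement, had 0.268, 0.229 and 0.0970 FPKM in KO and was listed at 0 in all WT libraries. Its mean was under the minimum for testing, and 52.5% of its 50-base stretches occur in other genes. H6pd, the last neighbour inside the window and the pentose phosphate enzyme of the endoplasmic reticulum, had 7.51, 7.22 and 6.31 FPKM in KO and 9.05, 8.14 and 8.44 FPKM in WT (log2 difference -0.25 ± 0.08, adjusted p = 0.26). Pgd, a cytosolic enzyme of the pentose phosphate pathway, measured 107, 91.1 and 112 FPKM in KO and 83.8, 105 and 97.1 FPKM in WT, with overlap.

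The stretch between Tnfrsf1b and Miip holds 20 rows of neighbours, most of them of the zinc finger cluster, with the pseudogenes Smarca5-ps and Rps19-ps3 among them. It also holds Tnfrsf8, which the rule left out by its symbol. Apart from Rps19-ps3 and Gm13157, none of the 20 rows exceeded 3.30 FPKM in any library. KO lay above WT in some of these rows and below it in others. Of the 20 rows 8 were tested and 1 was called, Gm13139, and the other 12 were above 0 but under the minimum. Gm13139 measured 1.39, 1.40 and 1.30 FPKM in KO libraries and 3.30, 2.93 and 2.98 FPKM in WT libraries. Its libraries were tight within each group and apart between them (log2 difference -0.78 ± 0.08, adjusted p = 0.016). The identity of this row is uncertain: at its deposited position, chr4:145781543-145832354, RefSeq has the pseudogene Znf41-ps, whereas the RefSeq gene with the synonym Gm13139, now Zfp991, starts at chr4:147132093.

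Gm13152 (Zfp982 in RefSeq) had 0.315, 0.143 and 0.249 FPKM in KO libraries and 1.23, 1.15 and 0.7501 FPKM in WT libraries, 22.6% of the WT mean (log2 difference -0.72 ± 0.12, adjusted p = 0.12). Its deposited row spans many other RefSeq genes, so the level may not belong to Zfp982 alone. 2610305D13Rik (Zfp979, with the synonym Ssm1b) had 0.292, 0.345 and 0.262 FPKM in KO and 0.778, 0.530 and 0.609 FPKM in WT. In both genes every KO library was below every WT library.

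Around them lie genes with the opposite order, named here after their values were seen. Zfp534 measured 0.584, 0.691 and 0.638 FPKM in KO libraries and 0.0837, 0.0575 and 0.0727 FPKM in WT libraries, 8.94 times the WT mean. Gm13154 (Zfp985) had 0.409, 0.472 and 0.379 FPKM in KO and 0.122, 0.140 and 0.130 FPKM in WT, and Gm13051 (Zfp987) 0.358, 0.391 and 0.332 FPKM in KO and 0.188, 0.142 and 0.128 FPKM in WT. These genes were under the minimum for testing. In a fit without that minimum Zfp534 (log2 difference 0.61 ± 0.04, adjusted p = 0.0029) and Gm13154 (log2 difference 0.33 ± 0.03, adjusted p = 0.037) were called, and Gm13051 was not (adjusted p = 0.12).

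Over the 12 low rows of the stretch, the groups did not overlap in 9, with KO above WT in 8 and below in 1. Over all named rows above 0 and under the minimum, 12.7% had groups that do not overlap, 5.29% with KO above and 7.42% with KO below. The other rows with KO above were Gm13242 (Zfp980), Zfp600, Gm13247 (Zfp981), Rex2 and 1700095A21Rik, with at most 0.121 FPKM in any library. Among the 8 tested rows 4 were apart, Gm13212 and the joint row Gm13139,Gm13251 with KO above and Gm13139 and Gm13152 with KO below. Gm13157 (Zfp984) and Zfp933, the tested zinc finger genes nearest to Miip, overlapped, at 4.97, 4.01 and 4.97 FPKM in KO and 4.72, 5.32 and 4.40 FPKM in WT for Gm13157, and at 2.46, 2.09 and 2.01 FPKM in KO and 2.42, 2.67 and 2.56 FPKM in WT for Zfp933. Of zinc finger genes with a Zfp symbol elsewhere in the genome, 0 of 311 tested were called by limma, 17 (5.47%) had an unadjusted p under 0.05, none passed in the authors' deposited table, and 12.9% had groups that do not overlap.

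Reads of these genes are hard to assign. Of their 50-base transcript stretches, 89.1% in Rex2, 89.0% in Zfp987, 81.2% in Zfp600, 71.3% in Zfp980 and 68.4% in Zfp534 occur in transcripts of other genes, against 15.9% in Zfp985 and 11.9% in Zfp982. Rex2 shares 80.4% with Zfp600 alone. The sources used here do not say how reads with several matches were counted, so the levels of single members of the cluster are uncertain, those with the highest shares most of all.

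The upstream sequences of the cluster show the same kinship. RefSeq gives the 250 bases before the start of 13 of its genes, whose 78 pairs were 43.4% to 99.2% identical with a median of 69.5%, and 15 pairs reached 80%. Printed here are Rex2 (chr4:147021600-147021849, plus strand), Zfp985 (chr4:147553027-147553276, plus strand) and Zfp534 (chr4:147702632-147702881, minus strand), which had KO above WT. Printed beside them is Zfp982 (chr4:147442864-147443113, plus strand), all on GRCm38.p6. The row matched to Zfp982, Gm13152, had KO below WT but spans many other RefSeq genes, so that order may not belong to Zfp982. None of these stretches holds a GENCODE exon, though RefSeq also gives Rex2 an earlier start, so that the Rex2 stretch lies inside its longer span. Rex2 and Zfp985 were 82.9% identical, Rex2 and Zfp534 70.1%, and Rex2 and Zfp982 45.8%. Capitals mark CCAAT and GGGCGG, searched on both strands: ATTGG is CCAAT read on the other strand and CCGCCC is GGGCGG read on the other strand.
Rex2: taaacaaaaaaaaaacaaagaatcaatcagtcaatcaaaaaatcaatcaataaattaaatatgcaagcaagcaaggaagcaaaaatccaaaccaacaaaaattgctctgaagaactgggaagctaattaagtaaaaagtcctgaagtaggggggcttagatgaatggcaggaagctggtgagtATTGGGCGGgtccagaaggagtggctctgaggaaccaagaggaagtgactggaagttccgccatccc
Zfp985: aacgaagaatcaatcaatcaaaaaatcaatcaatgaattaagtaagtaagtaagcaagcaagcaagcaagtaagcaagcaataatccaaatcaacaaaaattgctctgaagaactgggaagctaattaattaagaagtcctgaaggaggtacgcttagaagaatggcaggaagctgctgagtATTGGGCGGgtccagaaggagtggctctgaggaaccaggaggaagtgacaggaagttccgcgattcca
Zfp534: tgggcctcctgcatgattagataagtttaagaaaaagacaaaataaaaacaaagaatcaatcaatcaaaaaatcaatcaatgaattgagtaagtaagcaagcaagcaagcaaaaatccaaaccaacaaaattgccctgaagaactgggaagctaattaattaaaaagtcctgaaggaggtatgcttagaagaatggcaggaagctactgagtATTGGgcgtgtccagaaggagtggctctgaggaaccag
Zfp982: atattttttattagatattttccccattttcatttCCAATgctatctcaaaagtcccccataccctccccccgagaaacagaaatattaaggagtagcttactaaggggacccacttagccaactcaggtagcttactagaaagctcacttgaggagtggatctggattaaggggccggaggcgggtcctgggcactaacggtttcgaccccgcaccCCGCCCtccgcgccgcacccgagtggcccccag

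In Rex2 and Zfp985 the CCAAT and GGGCGG letters overlap in the run ATTGGGCGG. That run, picked out after the sequences were seen and searched on both strands, was in 9 of the 13 cluster promoters and in 76 of 32851 promoters in the table, or 0.231%. Zfp534 has ATTGG at the same place followed by other letters. Over all promoter stretches of 250 bases CCAAT was in 33.9% and GGGCGG in 32.7%. The 9 genes with the run included Gm13212, Zfp980, Zfp600, Zfp981, Rex2 and Zfp985, with KO above WT. They also included Zfp979, with KO below WT at a mean under the minimum, and Zfp984, whose groups overlapped. The last, Zfp988, had no row of its own. The upstream sequence of Zfp979 was 94.1% identical to that of Rex2.

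**Figure D4:**
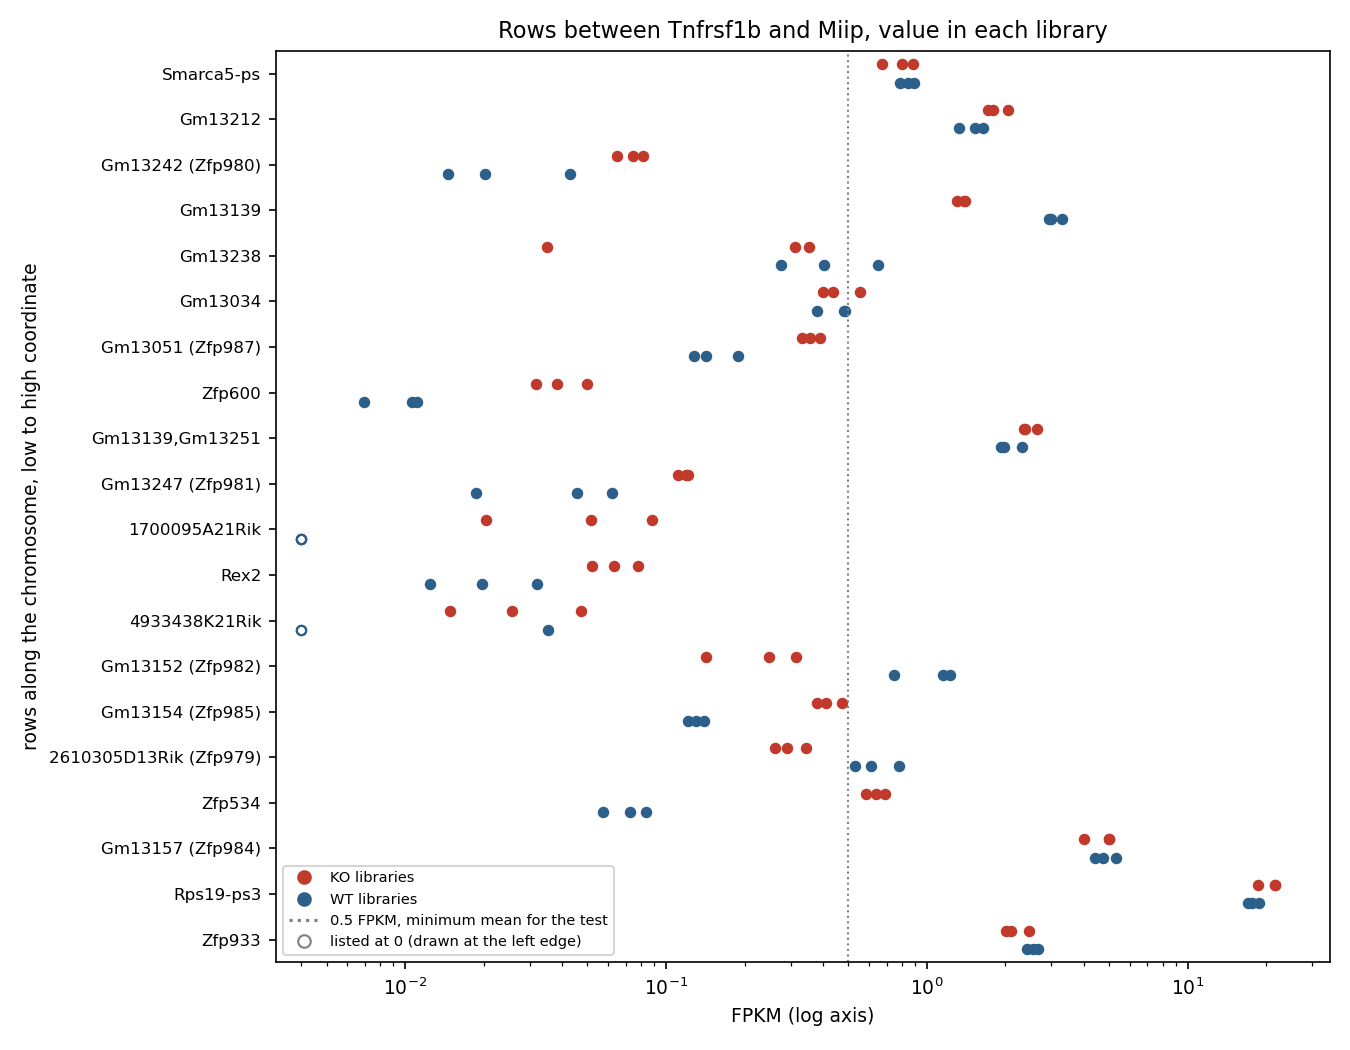
FPKM in each library on a log axis for the 20 rows of neighbours between Tnfrsf1b and Miip, from low coordinate at the top to high coordinate at the bottom, KO libraries (red) above WT libraries (blue) in each row. Open circles are values listed at 0 and the dotted line is the minimum mean of 0.5 FPKM for the test. Rows with KO to the right of WT, such as Zfp534, stand between rows with KO to the left, such as Gm13152 and 2610305D13Rik.

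The genes next to Tnfrsf1b on the lower side had KO values that overlapped WT values. Vps13d, a lipid transfer protein needed for mitochondrial clearance and the nearest neighbour with a gap of 0.0174 Mb, measured 13.8, 11.8 and 13.3 FPKM in KO and 11.4, 12.5 and 11.4 FPKM in WT (log2 difference 0.13 ± 0.08, adjusted p = 0.44). Dhrs3, which reduces retinal to retinol, measured 26.4, 33.9 and 27.1 FPKM in KO and 27.3, 26.9 and 27.8 FPKM in WT (adjusted p = 0.71). On the higher side the nearest tested neighbours were the pseudogene Smarca5-ps, at 0.881, 0.675 and 0.801 FPKM in KO and 0.791, 0.895 and 0.847 FPKM in WT, and Gm13212, at 2.05, 1.71 and 1.79 FPKM in KO and 1.33, 1.64 and 1.53 FPKM in WT (adjusted p = 0.81 and 0.36).

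Among the tested neighbours Gm13177, named Aadacl4 in RefSeq, had the widest difference in log2(FPKM + 1) and the least even libraries. It measured 0.405, 4.43 and 3.67 FPKM in KO libraries and 30.0, 7.79 and 27.2 FPKM in WT libraries (log2 difference -2.58 ± 0.80, adjusted p = 0.27). The groups did not overlap, but KO library 2 and WT library 2 lay close together. From low to high, its libraries came in the order of the skeletal muscle marker sums, KO libraries 1, 3 and 2 and then WT libraries 2, 3 and 1, while in the skin sums WT library 2 stood below KO libraries 2 and 3. In the authors' deposited table it passed, with a q-value of 5.6e-05. Its relatives were lower: Gm13124 had 0.0691, 0.675 and 0.681 FPKM in KO and 1.15, 0.487 and 0.953 FPKM in WT, and Gm13178 had 0.136, 2.28 and 1.98 FPKM in KO and 2.02, 0.252 and 1.09 FPKM in WT. Both overlapped between groups.

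The peptidylarginine deiminases, which turn arginine into citrulline in proteins such as those of hair, were near the bottom of the measured range. Padi4 measured 0.178, 0.672 and 0.555 FPKM in KO and 0.996, 0.424 and 0.977 FPKM in WT (adjusted p = 0.46). Padi3, also used above as a hair marker, had 0.0467, 0.0465 and 0.197 FPKM in KO and 0.605, 0.119 and 0.782 FPKM in WT, under the minimum, and passed in the authors' deposited table with a q-value of 0.0455. WT libraries 1 and 3 were highest in both genes. For Gm13177, its relatives and the deiminases, the part of skin and muscle content in the differences was not tested.

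Podoplanin, Pdpn, a membrane mucin of lymphatic endothelium, fibroblasts and some basal keratinocytes, was the other neighbour on the lower side with a wide difference. It measured 7.28, 8.93 and 4.53 FPKM in KO libraries and 14.3, 14.4 and 17.8 FPKM in WT libraries (log2 difference -1.10 ± 0.22, adjusted p = 0.16). The groups were apart, as were the leukocyte and the skeletal muscle sums. KO library 3, with the lowest Pdpn, had the lowest leukocyte sum of all libraries and the highest skin sum of the KO libraries. Other libraries did not keep that order. KO library 2 had more Pdpn than KO library 1 but a lower leukocyte sum (449 against 490.4 FPKM). WT library 3 had the highest Pdpn and the lowest leukocyte sum of the WT libraries. The part of tissue content in the Pdpn difference was not tested. Lower in KO too, without passing, were Mfap2, a microfibril protein (9.92, 10.6 and 8.58 FPKM in KO, 17.3, 11.8 and 14.7 FPKM in WT, adjusted p = 0.22), and Epha2, an ephrin receptor (3.76, 3.46 and 5.003 FPKM in KO, 5.28, 5.64 and 5.87 FPKM in WT, adjusted p = 0.25). Hspb7, a small heat shock protein of heart and skeletal muscle, measured 13.0, 18.6 and 18.0 FPKM in KO and 29.9, 18.7 and 25.1 FPKM in WT (adjusted p = 0.28). Its highest library, WT 1, also had the highest muscle sum, and the part of muscle content was not tested. 6330545A04Rik (Cplane2), a ciliogenesis gene, had the opposite order, at 0.843, 0.981 and 0.943 FPKM in KO and 0.676, 0.355 and 0.635 FPKM in WT (adjusted p = 0.27).

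Most well expressed genes on the lower side overlapped between the genotypes. Sdhb, a subunit of respiratory complex II and the highest of the neighbours, measured 171, 145 and 175 FPKM in KO and 159, 163 and 150 FPKM in WT. Efhd2, a calcium-binding actin regulator, measured 107, 79.4 and 106 FPKM in KO and 98.2, 124 and 109 FPKM in WT, and Casp9, the initiator caspase of the mitochondrial death pathway, 7.57, 6.41 and 7.20 FPKM in KO and 6.78, 7.56 and 7.50 FPKM in WT. None of them passed the test (adjusted p = 0.80, 0.54 and 0.84). The PRAME family was mostly silent: of 18 rows with a Pramel symbol in RefSeq, 12 were at 0 in all libraries, 5 were under the minimum, and Pramef8 alone was tested, at 4.77, 3.25 and 3.95 FPKM in KO and 3.80, 3.49 and 4.33 FPKM in WT.

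**Figure D5:**
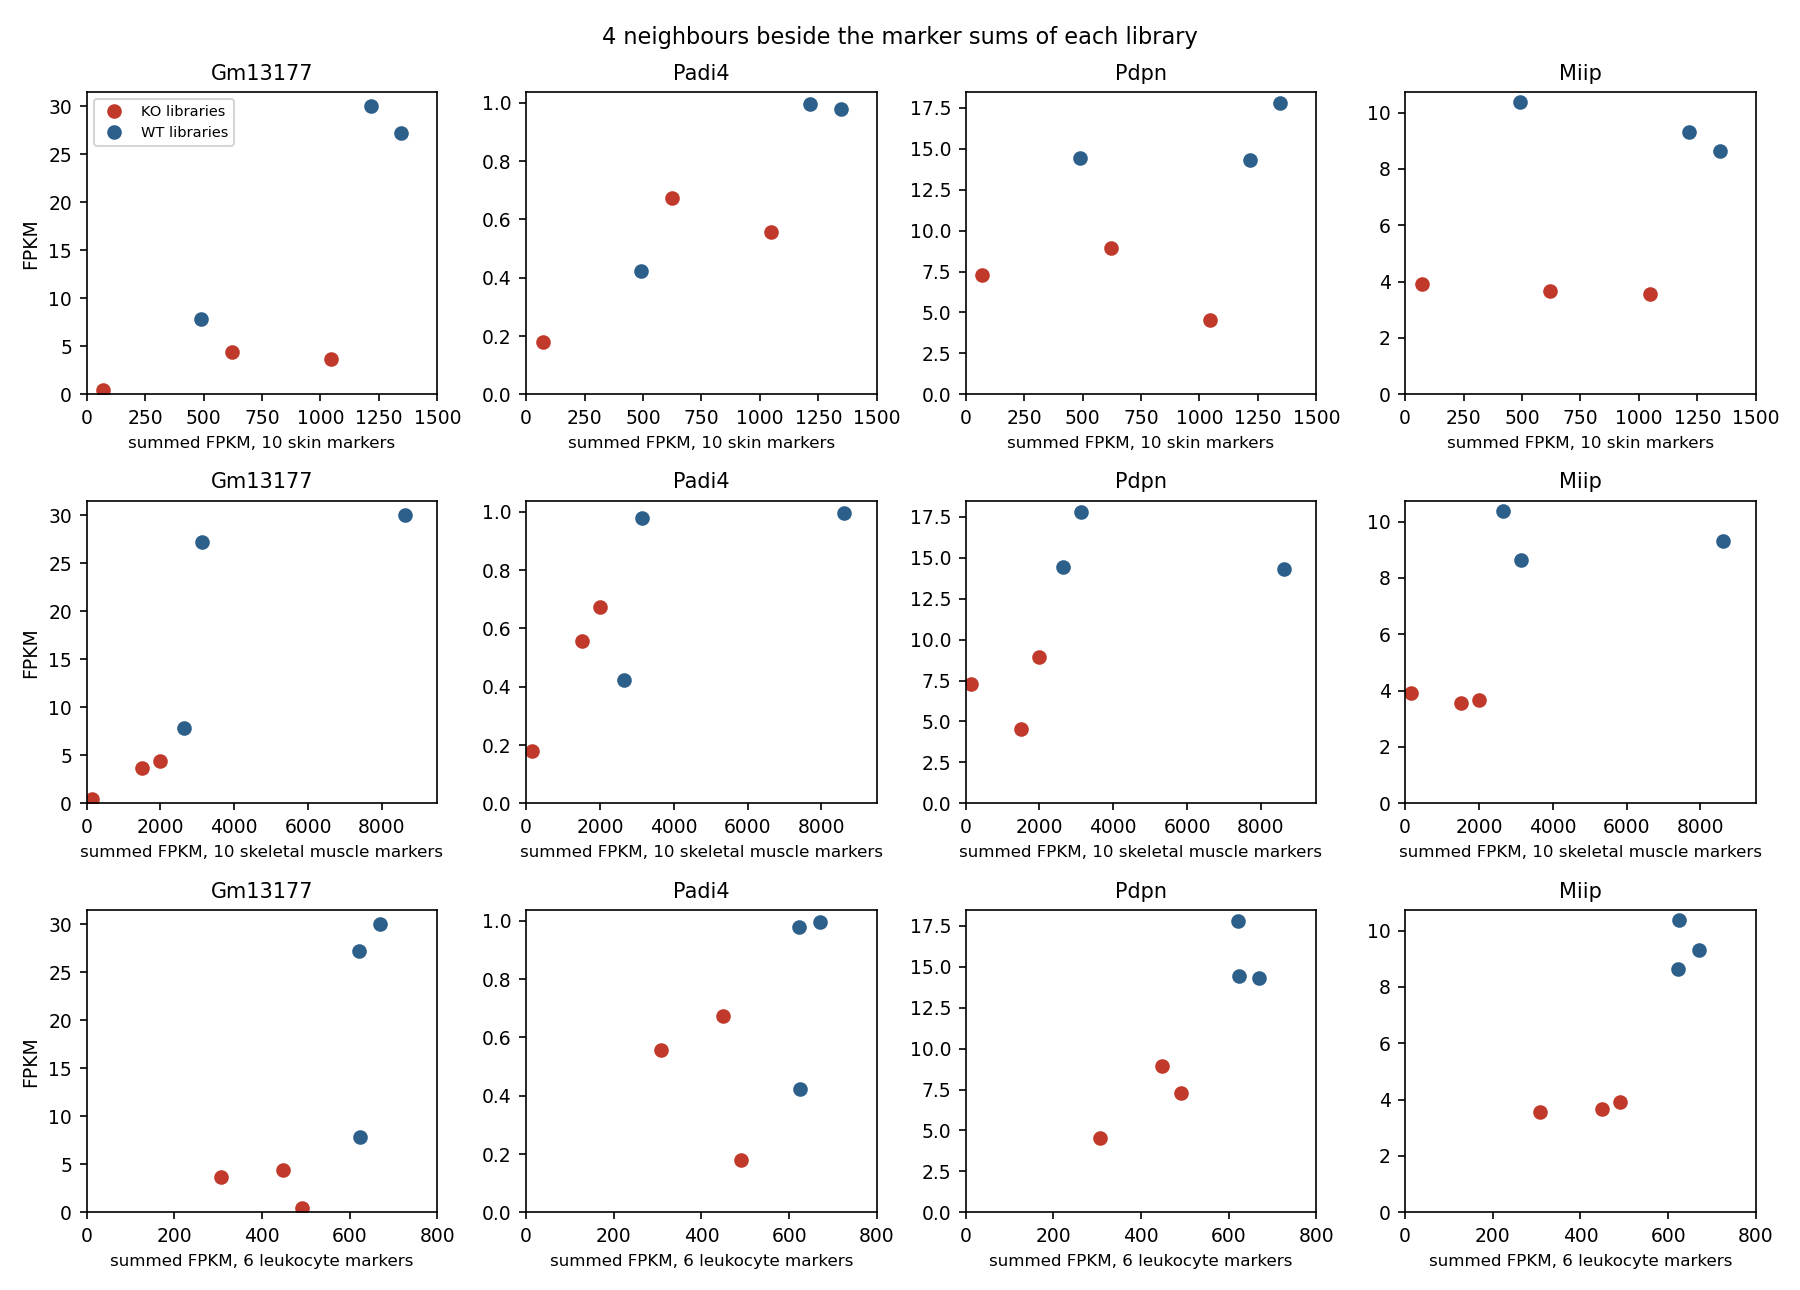
FPKM of Gm13177, Padi4, Pdpn and Miip (columns) in each library against the summed FPKM of 10 skin, 10 skeletal muscle and 6 leukocyte markers (rows) in the same library, KO libraries in red and WT libraries in blue. Skin sums overlap between KO and WT libraries, while skeletal muscle sums, at most 1996 FPKM in KO and at least 2643 FPKM in WT, and leukocyte sums, at most 490.4 FPKM in KO and at least 622 FPKM in WT, do not. Within the leukocyte sum, Ptprc, Cd79a and Cd3e overlap when taken singly.

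Genes of the same pathways outside the window were counted beside the neighbours. For the F-box ligases 0 of 6 other genes were called by limma and 0 had an unadjusted p under 0.05, and for retroelement restriction and KRAB silencing 0 of 16 and 0. Trim28, the KRAB corepressor, measured 42.4, 39.6 and 42.2 FPKM in KO and 40.4, 41.8 and 41.8 FPKM in WT. For mitochondrial fusion and respiration 0 of 8 other genes were called with 0 at an unadjusted p under 0.05, and for PI3K and mTOR signalling 0 of 12 with 3 (25.0%), where 16.2% of all tested rows had such a p. In the natriuretic peptide and renin-angiotensin list 0 of 7 other genes were called, 2 (28.6%) had an unadjusted p under 0.05 and all 7 had a lower mean in KO, where 57.4% of all tested rows did. Of the 3 tested netrin pathway genes besides Draxin none was called and 1 had an unadjusted p under 0.05. None of the genes in these lists outside the window passed in the authors' deposited table.

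In the authors' own test, 5 of the 150 neighbours passed at a q-value under 0.05, where 240 of 23108 named rows did (1.04%). Per the authors' deposited table these included Padi3, Gm13177, Zfp534 and Miip, and Miip passed in both tests. The authors' q-value was 0.0238 for Miip and 0.000134 for Zfp534. For Fv1, Fbxo44, Gm13139 and 2610109H07Rik the authors' q-values were 0.230, 0.327, 0.290 and 0.723.

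With 3 libraries a group, single libraries decided several calls. Miip was called in all 6 fits that left out a library, with adjusted p-values between 0.0058 and 0.027. Fv1 lost its call without KO library 3 and without WT library 3 (adjusted p = 0.068 and 0.067), and Fbxo44 without KO library 2 and without KO library 3 (adjusted p = 0.070 and 0.091). Gm13139 kept its call without WT library 2 only, with adjusted p-values up to 0.11, and 2610109H07Rik without KO library 1 only, with values up to 0.23. The direction of difference of these 5 was the same in every one of these fits. Without KO library 3, Miip was the only neighbour called, and 21 rows were called over the whole table.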

How the data were processed

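The deposited table gives FPKM per gene and library, made by the authors, per the series' design text, with Tophat2 and Bowtie2, Cufflinks and Cuffdiff 2, on mm10 per the submitters' processing notes. Its p-value and q-value columns are the authors' Cuffdiff 2 output, as deposited, and its group levels and log2 fold change columns serve only beside those. The sources used here do not give the annotation, strandedness or scaling. Depth in reads is not in the table and is unknown per library, so no counting interval was computed.

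Named rows with a mean of at least 0.5 FPKM (14564) went into limma 3.58.1 (R 4.3.3) as log2(FPKM + 1), with trend and robust moderation, all 6 libraries and no covariate. The test was also run on simulated data, with rows drawn independently and changes put into better expressed rows only. That check therefore does not cover shared tissue content or changes at levels as low as those of Fv1 and 2610109H07Rik. Rows without a name, 6.13% of rows and 17.7% of summed FPKM, stayed out. The labels number the libraries of a group as replicates, which were taken to be separate mice. No column of per-sample values was left unused.

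Positions are the deposited ones, counted from 1. Of 150 neighbours 148 matched RefSeq (GRCm38.p6) by symbol or synonym, 146 of them at an overlapping position, and 147 had GENCODE M21 transcripts, whose 50-base stretches were looked up in all other genes. Named genes were Tnfrsf1b, called neighbours, the 15 next by p, the 4 nearest tested on each side and the 2 highest neighbours of each list. Of the neighbours this rule takes, 2 are counted but not reported here. Other genes were named after their values were seen. The neighbours, lists and tests were chosen with earlier results of these data known. Other pseudocounts, filters, scalings, rows, moderation, a replicate block and left-out libraries were tried as alternatives. Tables and figures were made in Python 3.11.15 using matplotlib 3.10.9, pandas 2.3.3 and numpy 2.4.6.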

Additional observations from a re-analysis of the deposited data

Results flagged for a closer look

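Rows of the window without a gene name were outside the comparison, and 2 of them had every KO library above every WT library, where 13.3% of unnamed rows above 0 did. The row at chr4:149502347-149503503 measured 1.60, 1.63 and 1.44 FPKM in KO libraries, a mean of 1.56, and 0.794, 1.03 and 0.609 FPKM in WT libraries. The row at chr4:149570935-149571270 measured 1.86, 1.67 and 1.45 FPKM in KO libraries, a mean of 1.66, and 0.874, 0.996 and 0.989 FPKM in WT libraries. Their q-value in the authors' deposited table was 1.00 for both.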

How the results depend on the processing

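Pseudocounts of 0.1 and 0.5, a minimum of 1 FPKM, no minimum, 2 scalings between libraries, a fit without small RNA rows and one without trend and robust moderation called 5 to 7 neighbours, against 6 in the fit reported. Miip, Fv1, Fbxo44 and Gm13139 were among them each time. The call of 2610109H07Rik was lost without a minimum, under both scalings, without small RNA rows and without trend (adjusted p between 0.052 and 0.096). Over the whole table, 22 rows were called without small RNA rows, which removes called rows, against 42. Leaving out single libraries moved the neighbours called between 1 and 5 and the rows called between 21 and 74. With the replicate number as a block 2 neighbours, Miip and Fbxo44, and 24 rows were called. Deviations of same-numbered libraries from their group means correlated at -0.375, -0.337 and 0.209, and those of other-numbered pairs at -0.235 to 0.467. With 3 libraries a group and uneven tissue content, these values cannot decide whether same-numbered libraries belong together. Without WT libraries 1 and 3 and KO library 1, chosen after seeing the data, 9 neighbours and 130 rows were called, the 6 neighbours above and Gm13152, Gm13177 and Gm13178. That fit leaves a lone WT library, assumed to vary like KO, and the cause of its higher count was not tested. Of 350 alternative values for 22 genes none changed direction, 27 lost a call and 2 gained one. Calls by step of distance did not move with midpoints or without rows of several genes. Low levels, as in the zinc finger cluster, are the least precise.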
